A study of Mus musculus with 40 samples.

Results

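Collagens, other extracellular matrix genes and fibroblast-related genes were followed in mouse kidney across rising doses of the dioxin TCDD. The set was defined by name. It holds the 44 protein-coding genes with a collagen chain symbol and 23 listed genes for matrix glycoproteins, proteoglycans, crosslinking enzymes, matrix proteases and their inhibitors, growth factors, growth factor receptors and mesenchymal cytoskeletal proteins. These 67 genes were found among 55359 gene identifiers in the counts, of which 21877 were protein-coding in the GENCODE M21 annotation. After a filter on low counts, 58 of the 67 were tested, 36 of them collagens, and 9 were not.

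Right kidneys of 40 male C57BL/6 mice were profiled by bulk RNA sequencing, with 5 mice in each of 8 groups. Mice received sesame oil alone (vehicle) or TCDD in sesame oil at 0.03, 0.1, 0.3, 1, 3, 10 or 30 µg/kg by oral gavage, with 7 administrations at 4-day intervals over 28 days. They were 30 days old at the first dose and 58 days old at the end, and all groups were of the same strain, sex and age. TCDD (2,3,7,8-tetrachlorodibenzodioxin) activates the aryl hydrocarbon receptor and is cleared slowly; the receptor is a transcription factor that binds DNA at short sites called dioxin response elements. The labels do not say whether mice of a group shared a cage or litter.

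The extracellular matrix of the kidney has an interstitial part, built from fibrils of collagens I, III and V with collagen VI filaments and made mainly by fibroblasts and pericytes, and basement membranes built on networks of collagen IV. The chains encoded by Col4a1 and Col4a2 form the network found in most basement membranes, while those encoded by Col4a3, Col4a4 and Col4a5 form the network of the mature glomerular filter. In fibrosis, fibroblasts and pericytes expand, contractile myofibroblasts appear, and fibrillar collagen, fibronectin, lysyl oxidases and inhibitors of matrix proteases accumulate under the influence of TGF-beta and PDGF.

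Gene counts summed to 15278423 to 25575317 per library, and mitochondrial genes took 7.31 to 11.3% of them. No replicate pair agreed within sampling noise, so each of the 40 libraries counted as 1 replicate. Cyp1a1, the standard receptor target, stood at 1.15 to 4.00 CPM (gene counts scaled to the library total) in vehicle kidneys, at 1309 to 1652 CPM at 10 µg/kg and at 2074 to 2996 CPM at 30 µg/kg. CPM values below were scaled with TMM library factors. In whole tissue, fewer cells of a type and less RNA per cell cannot be told apart.

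The promoter stretches of 6 members called at 30 µg/kg are shown here because the dioxin receptor acts through DNA. They are all those called members with a RefSeq window whose stretch lies outside annotated exons for at least 175 bases before the gene's start. They come from RefSeq, build GRCm38.p6, and are written 5′ to 3′ on the gene's strand, with the core of the dioxin response element in capitals (GCGTG, or CACGC when read from the other strand). Tgfb1 lies at chr7:25686752-25687001 on the plus strand, Bgn at chrX:73483351-73483600 (plus), Pdgfra at chr5:75152001-75152250 (plus), Mmp14 at chr14:54431348-54431597 (plus), Timp3 at chr10:86300162-86300371 (plus) and Col6a6 at chr9:105828161-105828335 (minus).
Tgfb1: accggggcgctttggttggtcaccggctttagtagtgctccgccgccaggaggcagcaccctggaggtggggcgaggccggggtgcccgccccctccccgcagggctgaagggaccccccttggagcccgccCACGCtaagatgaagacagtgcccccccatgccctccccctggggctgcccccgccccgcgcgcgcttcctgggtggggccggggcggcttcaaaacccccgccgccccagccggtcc
Bgn: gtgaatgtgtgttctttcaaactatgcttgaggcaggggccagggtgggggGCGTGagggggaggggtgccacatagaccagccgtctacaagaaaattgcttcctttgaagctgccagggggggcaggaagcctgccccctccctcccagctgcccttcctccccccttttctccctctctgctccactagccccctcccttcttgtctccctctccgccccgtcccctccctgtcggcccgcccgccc
Pdgfra: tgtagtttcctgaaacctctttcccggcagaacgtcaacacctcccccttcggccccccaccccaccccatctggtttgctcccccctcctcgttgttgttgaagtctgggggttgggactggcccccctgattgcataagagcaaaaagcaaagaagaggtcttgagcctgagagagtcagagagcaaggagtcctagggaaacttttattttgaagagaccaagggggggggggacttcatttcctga
Mmp14: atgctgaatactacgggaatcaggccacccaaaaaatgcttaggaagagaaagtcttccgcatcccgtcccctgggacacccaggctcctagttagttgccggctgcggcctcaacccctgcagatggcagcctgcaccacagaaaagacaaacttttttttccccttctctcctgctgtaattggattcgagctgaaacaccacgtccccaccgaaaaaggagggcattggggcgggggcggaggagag
Timp3: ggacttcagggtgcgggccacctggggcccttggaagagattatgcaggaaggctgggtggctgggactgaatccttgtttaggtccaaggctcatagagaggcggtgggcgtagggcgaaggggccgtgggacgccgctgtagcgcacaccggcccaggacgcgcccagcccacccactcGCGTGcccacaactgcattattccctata
Col6a6: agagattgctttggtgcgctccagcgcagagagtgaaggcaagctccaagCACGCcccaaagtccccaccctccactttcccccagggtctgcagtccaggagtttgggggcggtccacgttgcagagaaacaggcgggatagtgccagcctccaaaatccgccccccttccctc
In the stretches shown, the core began 118 bases before the start in Tgfb1, 199 in Bgn, 69 in Timp3 and 200 in Col6a6, and these letters were not in the Pdgfra or Mmp14 stretch. The Col6a6 stretch ends 75 bases before the start, and the whole Col6a6 window held 3 cores. RefSeq windows were at hand for 48 of the 67 members, in 52 windows, and 13 of these (25.0%) held the core on either strand in the 250 bases before the start. Among all 32851 promoter windows the share was 28.2%. Of members higher at 30 µg/kg, 4 of 8 windows held it, of members lower, 2 of 3, and of members not called, 7 of 35. These are matches of 5 letters and not binding sites.

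In vehicle kidneys the basement membrane chains and a few secreted regulators were the most abundant members. Levels of different genes are compared here as CPM per kilobase of exon. Timp3, an inhibitor of matrix metalloproteases bound to the matrix, led with 150 ± 26.6 CPM per kb (SD, n = 5), and no library overlapped the next gene. Sparc, a secreted collagen-binding glycoprotein, followed with 45.2 ± 5.56, then Col4a1 (42.1 ± 4.36) and Col4a4 (40.3 ± 2.27), and the ranges of these neighbours overlapped. Col4a2 (33.7 ± 2.32), Col18a1 (33.1 ± 2.90), which encodes a basement membrane collagen, and Col4a3 (29.9 ± 2.42) formed the next overlapping run, set apart from Col4a4 above. The interstitial fibril chains were lower, at 8.40 ± 1.88 CPM per kb for Col1a1, 7.08 ± 1.09 for Col1a2 and 7.01 ± 0.977 for Col3a1, and overlapped each other. All members together took a median of 0.408% of the gene counts in vehicle libraries, the 6 collagen IV genes 0.134% and Col1a1, Col1a2 and Col3a1 0.0194%.

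**Figure D1:**
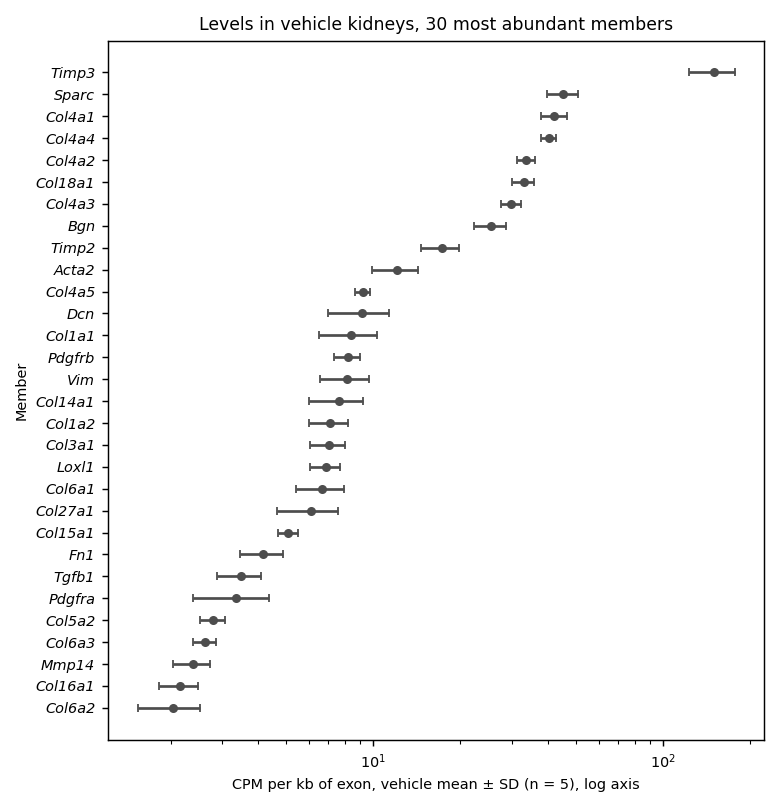
Levels of the 30 most abundant members in vehicle kidneys, as CPM per kilobase of exon on a log axis. Points are means of 5 libraries and bars are SD, drawn to the value itself. Timp3 stands alone at 150, and the collagen IV chains other than those of Col4a5 and Col4a6 lie between 29.9 and 42.1.

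The 9 untested members were Col2a1, Col9a1, Col9a2, Col9a3, Col10a1, Col11a1, Col22a1, Col28a1 and Tagln. Their highest level in any library was 0.22 (Col9a1) to 0.90 CPM (Col9a3). Col2a1, the cartilage fibril chain, reached 0.58 CPM. Tagln, a smooth muscle actin-binding protein, reached 0.77 CPM, but 67.9% of its exon bases are shared with Gm48529 or Pcsk7 in the annotation, so its count is uncertain.

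Of the 58 members tested, 9 differed from vehicle at 10 µg/kg and 19 at 30 µg/kg, and none at the lower doses. Tests were edgeR quasi-likelihood fits with p-values adjusted by Benjamini-Hochberg over all 17345 genes tested. No member passed an adjusted p of 0.05 at 0.03 µg/kg (0% of all genes), 0.1 µg/kg (0%), 0.3 µg/kg (0.00577%), 1 µg/kg (0.513%) or 3 µg/kg (1.09%). At an unadjusted p under 0.05 there were 3, 3, 3, 3 and 5 members at these doses, beside 5.67, 5.54, 5.24, 7.10 and 8.95% of all genes. DESeq2 called none at the 4 lowest and 1, Vim, at 3 µg/kg. At 10 µg/kg, 9 of 58 members passed and all 9 were higher, where 4.82% of all genes passed, 3.82% were higher and 0.997% lower. They were Lox, Fn1, Mmp2, Vim, Pdgfra, Pdgfrb, Bgn, Sparc and Col4a1. With only vehicle and 10 µg/kg libraries in the fit, 11 passed: Pdgfra (adjusted p = 0.153) and Col4a1 (0.0692) were lost, and Col1a2, Col3a1, Col6a3 and Col15a1 were gained as higher. DESeq2 called the 9 and Col1a2. At 30 µg/kg, 19 passed, where 15.9% of all genes did: 15 were higher (8.39% of all genes) and 4 were lower (7.55%). With only vehicle and 30 µg/kg libraries in the fit, 7 of the 19 passed: Lox, Col6a6, Dcn, Pdgfra, Mmp14, Pdgfrb and Loxl1. The others of the 19 did not pass there, with adjusted p from 0.0519 (Col4a4) to 0.340 (Fn1). Without the filter on low counts, Sparc at 10 µg/kg (adjusted p = 0.0627) was lost, as were Fn1 (0.0988) and Col4a2 (0.0544) at 30 µg/kg. In the stranded counts Sparc at 10 µg/kg (0.0528) was lost, as were Fn1 (0.0803), Col5a2 (0.103) and Col26a1 at 30 µg/kg. The stranded counts came from 1 strand, which held 50.4 to 51.0% of the counts of both, so fewer reads entered that fit. Of the 36 collagens tested 6 passed at 30 µg/kg, a share near the 15.9% of all genes, and of the 22 other members 13. The median log2 fold change of the 58 members was 0.31 at 10 µg/kg and 0.25 at 30 µg/kg, beside −0.01 and 0.01 over all genes, and lay between −0.01 and 0.11 at the 5 lower doses. The vehicle libraries are common to these comparisons.

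**Figure D2:**
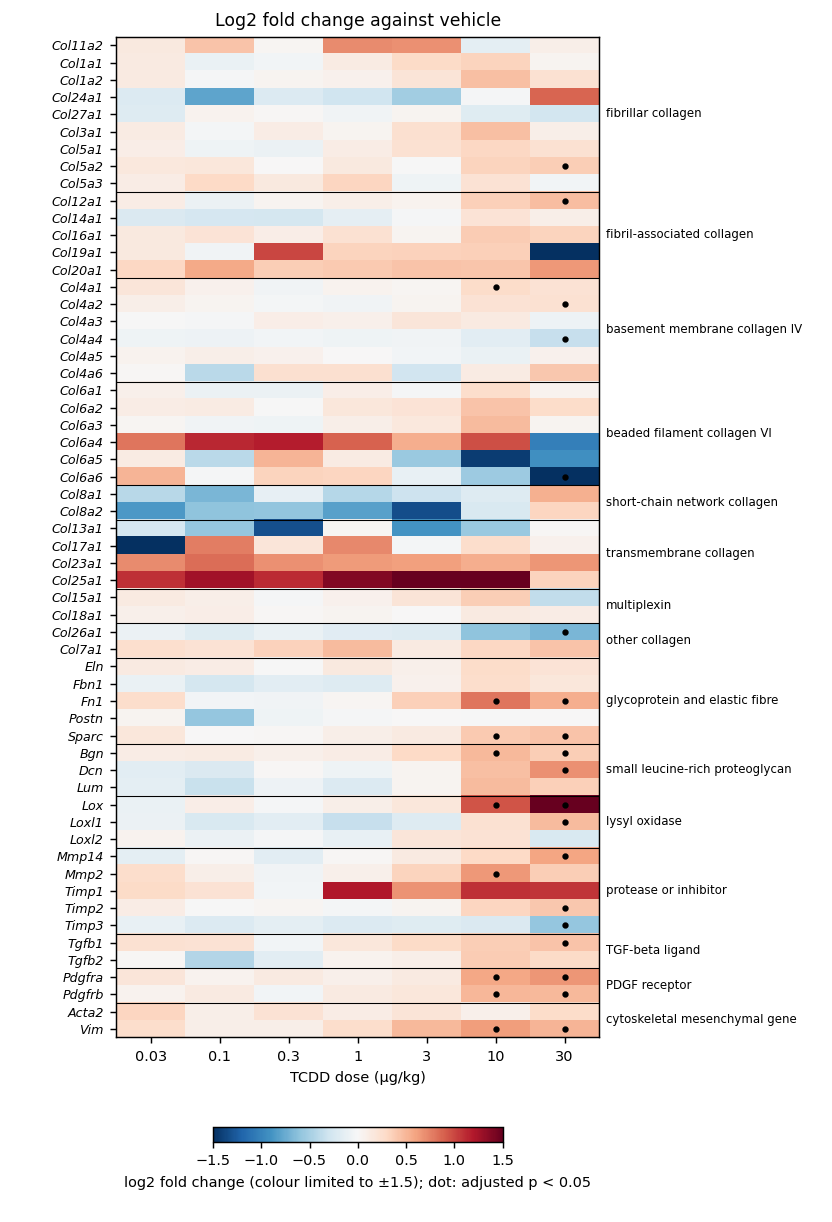
Log2 fold change against vehicle of the 58 tested members (rows, grouped by role) at the 7 doses (columns), from edgeR. Black dots mark adjusted p under 0.05, 9 at 10 µg/kg and 19 at 30 µg/kg; the strongest colours at low doses without dots belong to genes of low level such as Col25a1.

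Of the TGF-beta ligands, Tgfb1 was called and Tgfb2 was not. Tgfb1, the main profibrotic ligand, stood at 14.4, 20.3, 14.4, 18.7 and 20.5 CPM in vehicle libraries and at 24.5, 24.1, 20.4, 23.4 and 26.0 CPM at 30 µg/kg. Only replicate 3 at 30 µg/kg lay within the vehicle range. Tgfb1 rose by 0.43 ± 0.13 on the log2 scale (SE; adjusted p = 0.0167), and the call was lost without replicate 5 at 30 µg/kg (0.0506) or without vehicle replicate 1 (0.0651) or 3 (0.0747). Tgfb2 was present at 1.64 to 3.14 CPM in vehicle kidneys and differed by 0.29 ± 0.28 at 30 µg/kg (adjusted p = 0.550). Of 20 receptors, SMADs and known targets of this pathway, 6 were higher and 0 lower at 30 µg/kg, beside 8.39% and 7.55% of all genes, with a median log2 fold change of 0.20 (0.01 over all genes). Among them, Ccn2, a matricellular growth factor, went from 37.7 ± 9.78 to 83.5 ± 34.6 CPM (SD, n = 5), and Tgfbi, a collagen-binding adhesion protein, from 14.3 ± 2.31 to 24.1 ± 4.98 CPM. Their log2 fold changes were 1.15 and 0.76. Ccn2 was above all vehicle libraries in 4 libraries at 30 µg/kg and below all of them in 1, while Tgfbi was above in all 5.

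Both PDGF receptors rose at 10 and 30 µg/kg. Pdgfrb, the receptor of pericytes and mesangial cells, stood at 49.6, 44.8, 37.2, 46.5 and 45.8 CPM in vehicle libraries, at 61.0, 64.6, 58.0, 59.3 and 72.5 CPM at 10 µg/kg and at 63.5, 75.0, 56.0, 58.3 and 60.5 CPM at 30 µg/kg. Every library at either dose was above every vehicle library. The log2 fold changes were 0.50 ± 0.09 (adjusted p = 0.000137) and 0.49 ± 0.09 (adjusted p = 9.722e-05), and both calls held when any 1 library was left out. Pdgfra, which marks interstitial fibroblasts, stood at 31.1, 24.8, 25.3, 41.1 and 46.9 CPM in vehicle libraries and at 48.9, 55.4, 45.4, 59.8 and 58.1 CPM at 30 µg/kg. Here 4 of the 5 treated libraries were above all vehicle libraries, and replicate 3 was within their range. Pdgfra rose by 0.67 ± 0.15 (adjusted p = 0.00106) at 30 µg/kg and by 0.58 ± 0.15 (adjusted p = 0.0110) at 10 µg/kg, and the call at 10 µg/kg was lost without replicate 2 at that dose (0.0661) or vehicle replicate 2 (0.0589) or 3 (0.0558), or with only the 2 groups compared in the fit (0.153).

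Of 11 fibrillar chains 9 were tested, and 1 of them, Col5a2, was called at 30 µg/kg and none at 10 µg/kg. Among all genes 15.9% were called at 30 µg/kg and 4.82% at 10 µg/kg. Their median log2 fold change was 0.31 at 10 µg/kg and 0.09 at 30 µg/kg. The calls at 10 µg/kg depended on the fit: with only the 2 groups compared, Col1a2 (0.46 ± 0.10, adjusted p = 0.00629) and Col3a1 (0.45 ± 0.09, adjusted p = 0.00346) were higher, and DESeq2 called Col1a2 (0.45 ± 0.14, adjusted p = 0.0295). Col1a1, a chain of the main interstitial fibril, stood at 74.2, 49.3, 43.4, 60.6 and 48.3 CPM in vehicle libraries and at 84.6, 87.7, 27.4, 33.3 and 51.1 CPM at 30 µg/kg. Replicates 1 and 2 at 30 µg/kg were above every vehicle library and replicates 3 and 4 below. The log2 difference was 0.05 ± 0.21 (95% interval −0.37 to 0.46, adjusted p = 0.923). Its partner Col1a2 stood at 102, 76.4, 75.6, 103 and 82.9 CPM in vehicle libraries and at 130, 139, 59.8, 83.1 and 101 CPM at 30 µg/kg (0.22 ± 0.15, adjusted p = 0.355). Col3a1, the second interstitial fibril chain, stood at 75.6, 65.8, 58.7, 81.8 and 62.4 CPM with vehicle and at 108, 141, 30.0, 33.4 and 54.1 CPM at 30 µg/kg. Replicates 1 and 2 were above all vehicle libraries and the other 3 below all of them, and the mean difference was 0.09 ± 0.26 (95% interval −0.41 to 0.59, adjusted p = 0.871). At 10 µg/kg all 5 Col3a1 values, from 87.6 to 104 CPM, were above the vehicle range, but with all 8 groups in the fit the change of 0.45 ± 0.25 was not called (adjusted p = 0.418). Col5a2, a chain that helps start collagen I fibrils, stood at 23.4 to 30.4 CPM in vehicle libraries and at 42.8, 33.4, 31.6, 33.8 and 31.6 CPM at 30 µg/kg, with no overlap. It rose by 0.37 ± 0.12 (adjusted p = 0.0238), and the call was lost without replicate 1 at 30 µg/kg (0.0989) or vehicle replicate 1 (0.0745) or 5 (0.0544).

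**Figure D3:**
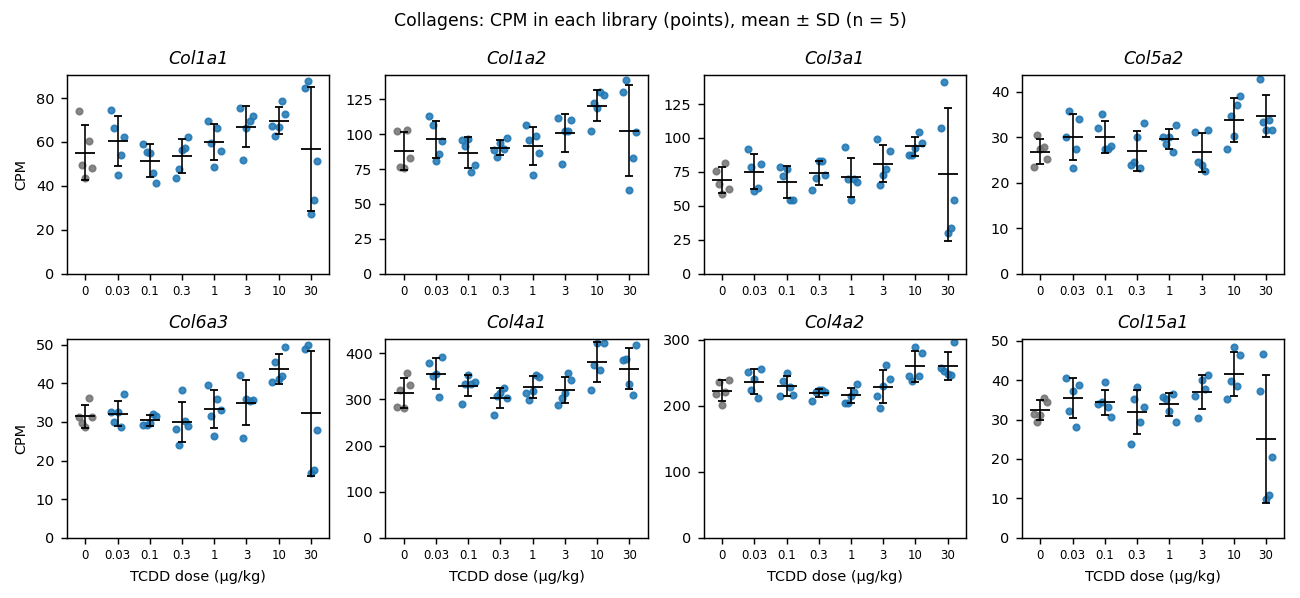
CPM of 8 collagen genes in every library by dose (points; vehicle grey, TCDD blue), with mean ± SD of 5 libraries. At 30 µg/kg the values of Col1a1, Col3a1, Col6a3 and Col15a1 spread to both sides of the vehicle range (Col3a1 from 30.0 to 141 CPM), while those of Col4a2 and Col5a2 do not overlap it.

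Of the collagens attached to fibrils, 5 of 9 were tested and 1 was called at 30 µg/kg, where 15.9% of all genes were. Col12a1, which bridges collagen I fibrils, stood at 17.9, 9.47, 12.2, 16.2 and 16.4 CPM with vehicle and at 23.7, 18.5, 15.3, 18.0 and 23.5 CPM at 30 µg/kg. Replicate 3 alone lay within the vehicle range. Col12a1 rose by 0.46 ± 0.15 (adjusted p = 0.0288), a call lost without replicate 1 (0.0796) or 5 (0.0998) at 30 µg/kg or vehicle replicate 2 (0.132) or 3 (0.0941).

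Among the 6 collagen IV genes, a chain of the ubiquitous network rose and a chain of the glomerular network fell at 30 µg/kg. Col4a2 stood at 218, 236, 201, 221 and 239 CPM in vehicle libraries and at 257, 253, 248, 247 and 297 CPM at 30 µg/kg, without overlap. It rose by 0.22 ± 0.07 (adjusted p = 0.0232), a call lost without replicate 5 at 30 µg/kg (0.113) or vehicle replicate 1 (0.0508) or 3 (0.0924). Its partner Col4a1 rose at 10 µg/kg by 0.27 ± 0.08 (adjusted p = 0.0432), a call that was kept only without replicate 1 at that dose or vehicle replicate 4 or 5, and lost in the other 7 fits that left out 1 library (0.0538 to 0.155) and with only the 2 groups compared (0.0692). At 30 µg/kg it differed by 0.22 ± 0.08, with 386, 386, 332, 309.6 and 418 CPM against 281 to 358 CPM with vehicle, and was not called (adjusted p = 0.0640), although it was called without replicate 3 or 4 at 30 µg/kg or without vehicle replicate 4 (0.0474, 0.0244 and 0.0300). Col4a4 stood at 455, 453, 410.2, 405 and 416 CPM with vehicle and at 361, 373, 285, 292 and 373 CPM at 30 µg/kg. All 5 treated libraries were below all vehicle libraries, and Col4a4 fell by 0.34 on the log2 scale (SE 0.07, adjusted p = 0.000306). With only the 2 groups compared in the fit, Col4a4 was not called (adjusted p = 0.0519). The chains that assemble with it did not pass: Col4a3 differed by −0.07 ± 0.11 (adjusted p = 0.725), with replicates 3 and 4 at 209 and 229 CPM below the lowest vehicle value of 259, and Col4a5 by 0.07 ± 0.09 (adjusted p = 0.678).

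Collagen VI forms beaded filaments around cells. The 3 abundant chains were not called at any dose with all groups and libraries in the fit, and the rarer chain Col6a6 fell at 30 µg/kg. Col6a3 was called as higher at 10 µg/kg with only the 2 groups compared (0.48 ± 0.09, adjusted p = 0.00162), and Col6a2 at that dose without vehicle replicate 1 (0.55 ± 0.16, adjusted p = 0.0392). Col6a6 (ENSMUSG00000043719) stood at 4.55, 4.76, 12.1, 10.8 and 11.0 CPM in vehicle libraries and at 2.56, 3.28, 0.339, 0.561 and 1.49 CPM at 30 µg/kg. Every treated library was below the lowest vehicle library, and within the vehicle group replicates 1 and 2 were well under the others. The log2 fold change was −2.38 ± 0.41 (adjusted p = 9.349e-05), and leaving out single libraries gave −2.76 to −2.15. At 10 µg/kg the 5 values, from 2.35 to 12.0 CPM, overlapped the vehicle range (−0.55 ± 0.37, adjusted p = 0.526). Col6a1, Col6a2 and Col6a3 differed by 0.06 ± 0.19, 0.28 ± 0.16 and 0.04 ± 0.19 at 30 µg/kg (adjusted p = 0.891, 0.254 and 0.931). Col6a3 stood at 48.9 and 49.8 CPM in replicates 1 and 2 at 30 µg/kg, above the vehicle range of 28.7 to 36.3 CPM, and at 16.7, 17.7 and 27.9 CPM in the other 3, below it.

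Of the remaining collagens, Col26a1 was called. It stood at 4.78 to 7.30 CPM with vehicle and at 4.66, 2.21, 3.46, 4.04 and 3.74 CPM at 30 µg/kg, without overlap, and fell by 0.68 on the log2 scale (SE 0.22, adjusted p = 0.0301). That call was lost without replicate 2 (0.0982) or 3 (0.0517) at 30 µg/kg, without vehicle replicate 3 (0.0699) or 4 (0.0944), and in the stranded counts (−0.50, adjusted p = 0.278). The basement membrane zone collagens Col15a1 and Col18a1 were not called. Col15a1 showed 37.2, 46.5, 9.83, 10.9 and 20.4 CPM at 30 µg/kg against 29.3 to 35.4 CPM with vehicle, again 2 libraries above and 3 below the vehicle range (−0.37 ± 0.24, adjusted p = 0.331), and without replicate 2 it was called as lower (−0.72, adjusted p = 0.0187). Col18a1 differed by 0.12 ± 0.09 (adjusted p = 0.442).

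The largest called rise of any member was that of Lox (ENSMUSG00000024529), which encodes lysyl oxidase, the enzyme that starts the crosslinking of collagen and elastin. Lox stood at 3.80, 2.53, 6.31, 4.27 and 6.12 CPM in vehicle libraries, at 9.02, 10.6, 6.91, 10.9 and 7.12 CPM at 10 µg/kg and at 8.80, 11.1, 16.3, 30.3 and 18.1 CPM at 30 µg/kg. All libraries at both doses were above all vehicle libraries, and replicate 4 at 30 µg/kg was the highest. The log2 fold change was 0.95 ± 0.25 at 10 µg/kg (1.93-fold, adjusted p = 0.0130) and 1.87 ± 0.25 at 30 µg/kg (3.66-fold, adjusted p = 4.668e-07). At 10 µg/kg the call was lost without vehicle replicate 2 (0.0710), and at 30 µg/kg leaving out single libraries gave 1.56 to 2.04 and kept the call. Loxl1, which acts on elastic fibres, stood at 26.7, 23.3, 19.5, 22.5 and 21.4 CPM with vehicle and at 27.7, 31.3, 34.0, 25.9 and 38.2 CPM at 30 µg/kg, where only replicate 4 overlapped the vehicle range. It rose by 0.47 ± 0.13 (adjusted p = 0.00776), with the call kept in all 10 fits without 1 library. Loxl2, the third lysyl oxidase in the set, did not pass (−0.23 ± 0.19, adjusted p = 0.488), with 11.9 and 10.8 CPM in replicates 1 and 2 and 3.59 to 7.14 CPM in the other 3.

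Of the glycoproteins and elastic fibre genes, Fn1 and Sparc rose at both doses, and Postn, Fbn1 and Eln were not called at either. Fn1, encoding fibronectin, stood at 54.6, 41.6, 38.7, 58.2 and 50.5 CPM with vehicle, at 71.9, 75.7, 92.5, 88.1 and 98.1 CPM at 10 µg/kg and at 91.5, 116, 41.8, 40.3 and 65.1 CPM at 30 µg/kg. The 10 µg/kg libraries did not overlap vehicle, whereas replicates 3 and 4 at 30 µg/kg lay inside the vehicle range. The change was 0.81 ± 0.19 at 10 µg/kg (adjusted p = 0.00672), called in all 10 fits without 1 library, and 0.54 ± 0.19 at 30 µg/kg (adjusted p = 0.0474), called in 3 of 10. The latter was lost without replicate 1 (0.130), 2 (0.267) or 5 (0.0587) at 30 µg/kg or vehicle replicate 1 (0.0519), 2 (0.114), 3 (0.136) or 5 (0.0666). This call at 30 µg/kg was also lost with only the 2 groups compared in the fit (0.340). Sparc stood at 179, 179.7, 154, 197 and 146 CPM with vehicle, at 203 to 239 CPM at 10 µg/kg, and at 247, 297, 182, 195 and 228 CPM at 30 µg/kg. It rose by 0.40 ± 0.11 at 10 µg/kg (adjusted p = 0.0264), with the call lost without replicates 3, 4 or 5 at that dose or vehicle replicates 3 or 5 (0.0578 to 0.0866), and by 0.43 ± 0.11 at 30 µg/kg (adjusted p = 0.00593), with the call kept in all 10. With only the 2 groups compared in the fit, the Sparc call at 30 µg/kg was lost (0.0636). Postn, encoding periostin, a matricellular protein of activated fibroblasts, ranged from 4.02 to 12.7 CPM with vehicle and from 3.19 to 12.1 CPM at 30 µg/kg (0.00 ± 0.37, 95% interval −0.72 to 0.73, adjusted p = 0.998).

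All 3 small leucine-rich proteoglycans had positive fold changes at 30 µg/kg, and 2 were called, where 15.9% of all genes were. Dcn, encoding decorin, which binds collagen fibrils and TGF-beta, stood at 74.4, 47.3, 42.9, 57.5 and 45.6 CPM with vehicle and at 62.5, 92.6, 101, 89.2 and 84.8 CPM at 30 µg/kg, where replicate 1 lay within the vehicle range and the other 4 above it. Dcn rose by 0.69 ± 0.19 (adjusted p = 0.0113). Bgn, encoding biglycan, its close relative, stood at 154, 139.7, 144, 189 and 150.4 CPM with vehicle, at 218, 235, 190.0, 229.8 and 217 CPM at 10 µg/kg and at 245, 257, 166, 160.3 and 173 CPM at 30 µg/kg. It was above all vehicle libraries in 5 of 5 libraries at 10 µg/kg and in replicates 1 and 2 at 30 µg/kg. The changes were 0.49 ± 0.11 (adjusted p = 0.00265) and 0.37 ± 0.11 (adjusted p = 0.0151), the latter lost without replicate 1 (0.0649) or 2 (0.0842) at 30 µg/kg. Lum differed by 0.35 ± 0.34 (adjusted p = 0.556).

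Matrix proteases and their inhibitors moved in both directions. Mmp14, the membrane-bound collagenase that activates Mmp2, stood at 16.1, 11.4, 16.2, 13.1 and 14.3 CPM with vehicle and at 21.5, 20.7, 18.5, 25.3 and 21.2 CPM at 30 µg/kg, without overlap, and rose by 0.59 ± 0.13 (adjusted p = 0.00133). Mmp2, a gelatinase of fibroblasts, rose at 10 µg/kg by 0.66 ± 0.20 (adjusted p = 0.0463), a call kept only without replicate 2 or 3 at that dose or vehicle replicate 1 and lost without each of the other 7 libraries (0.0742 to 0.174), and differed by 0.37 ± 0.20 at 30 µg/kg (adjusted p = 0.232). Timp2, which inhibits Mmp2 and also helps to activate it, stood at 68.9, 62.3, 52.4, 76.9 and 75.0 CPM with vehicle and at 81.8, 89.5, 73.0, 106 and 91.7 CPM at 30 µg/kg, with replicate 3 inside the vehicle range. It rose by 0.40 ± 0.12 (adjusted p = 0.0169), lost without replicate 4 at 30 µg/kg (0.0839) or vehicle replicate 3 (0.0787). Timp3, the most abundant member, moved the other way. It stood at 1477, 1414, 1018, 1017 and 1177 CPM with vehicle and at 945.5, 1330.0, 734, 504 and 580.4 CPM at 30 µg/kg. Replicate 2 lay within the vehicle range and the other 4 below it, and Timp3 fell by 0.58 on the log2 scale (SE 0.16, adjusted p = 0.00996). With only the 2 groups compared in the fit the call was lost (adjusted p = 0.205). In the annotation 21.3% of Timp3's exon bases are shared with Syn3, in whose introns the gene lies on the opposite strand, and the counts used join both strands. Timp1, a common marker of kidney injury and fibrosis, was barely detected, at 0.203 to 0.526 CPM with vehicle and 0.284 to 1.01 CPM at 30 µg/kg (1.07 ± 0.81, adjusted p = 0.427), so a change of this size was not detectable at this depth.

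Of the mesenchymal cytoskeletal genes, Vim rose and Acta2 was not called. Vim, encoding the intermediate filament vimentin, stood at 34.2, 30.5, 35.0, 47.1 and 45.5 CPM with vehicle, at 50.0 to 57.4 CPM at 3 µg/kg, at 53.1 to 65.9 CPM at 10 µg/kg and at 58.7, 55.9, 37.2, 50.7 and 70.4 CPM at 30 µg/kg. No library at 3 or 10 µg/kg overlapped vehicle, and at 30 µg/kg replicate 3 did. The change was 0.49 ± 0.13 at 3 µg/kg (adjusted p = 0.0628), 0.63 ± 0.13 at 10 µg/kg (adjusted p = 0.00170) and 0.51 ± 0.13 at 30 µg/kg (adjusted p = 0.00610). With only the 2 groups compared in the fit, Vim was called at 3 µg/kg (0.0314) and not at 30 µg/kg (0.0859). Acta2, the smooth muscle actin that marks myofibroblasts, stood at 29.4, 21.1, 22.8, 32.7 and 27.0 CPM with vehicle and at 36.7, 32.8, 24.8, 28.8 and 37.7 CPM at 30 µg/kg. The difference of 0.28 ± 0.12 (95% interval 0.04 to 0.52) did not pass (adjusted p = 0.120), although it did without replicate 3 at 30 µg/kg (0.0460) or vehicle replicate 4 (0.0492).

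**Figure D4:**
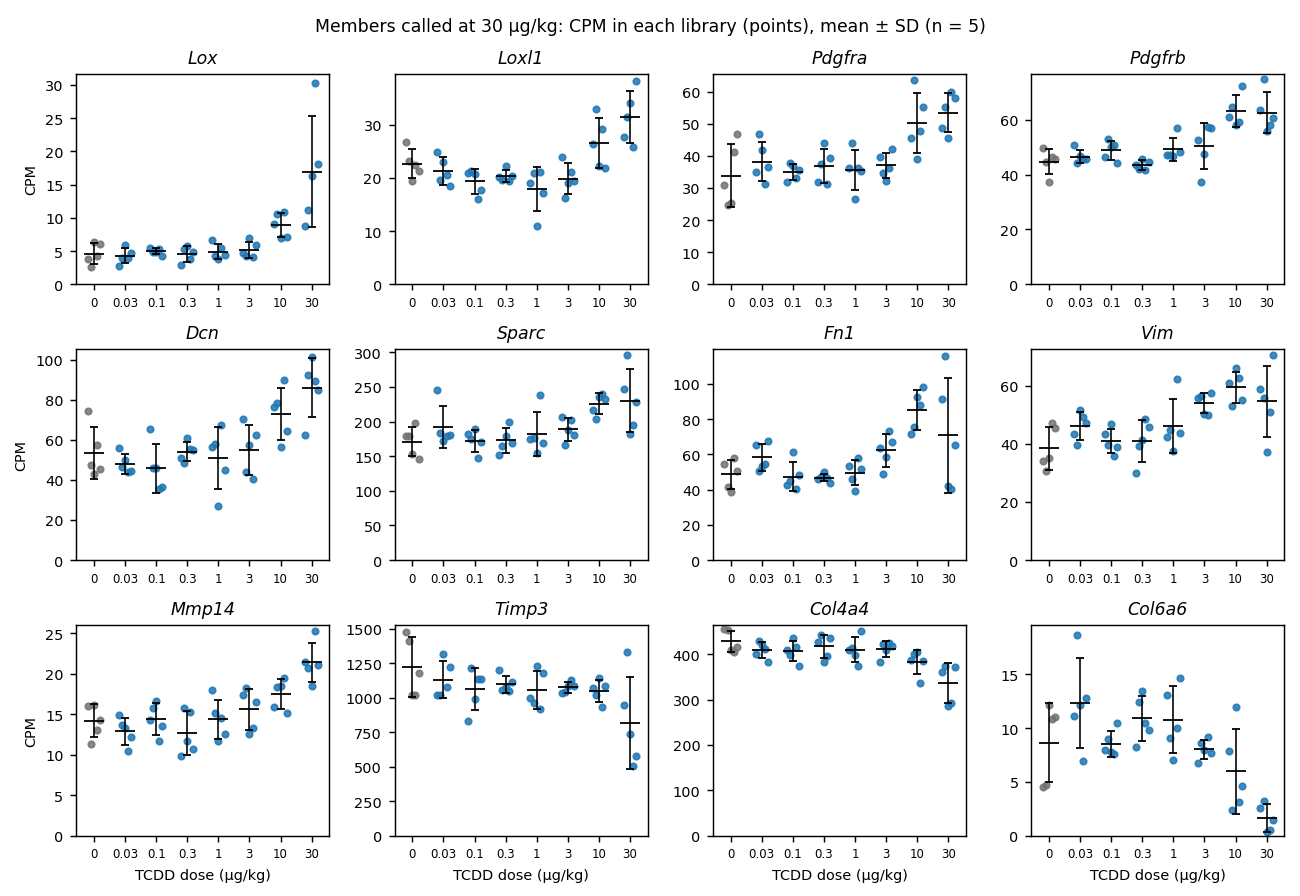
CPM of 12 members called at 30 µg/kg in every library by dose (points; vehicle grey, TCDD blue), with mean ± SD of 5 libraries. Lox reaches 30.3 CPM at 30 µg/kg from at most 6.31 CPM with vehicle, and Col6a6 falls to between 0.339 and 3.28 CPM.

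Separation from vehicle without overlap was counted over all members. At 10 µg/kg, 9 members had all 5 libraries above all vehicle libraries (4.32% of all genes) and 1, Col4a4, had all 5 below (1.82%). At 30 µg/kg these counts were 5 (3.59%), namely Lox, Mmp14, Pdgfrb, Col4a2 and Col5a2, and 3 (2.83%), namely Col4a4, Col6a6 and Col26a1. The 9 at 10 µg/kg included Col3a1, Col6a3 and Col16a1, which were not called by the test at that dose.

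Between the 2 highest doses, 2 of 58 members differed, where 2.7% of all genes did (1.19% higher at 30 µg/kg, 1.52% lower). Lox was higher at 30 than at 10 µg/kg by 0.93 ± 0.24 (adjusted p = 0.0205), and Col6a6 was lower (−1.83 ± 0.42, adjusted p = 0.0102). With only these 2 groups in the fit neither was called, and leaving out single libraries gave 0 to 6 members, with 0 without replicate 3 at 10 µg/kg or replicates 3 or 4 at 30 µg/kg, 1 without replicate 1 or 5 at 10 µg/kg, and 6 and 5 without replicates 1 and 2 at 30 µg/kg. In a trend over the dose rank, with 1 slope across all 40 libraries, 22 members passed, where 19.8% of all genes did. Of these 18 had a positive slope (11% of all genes) and 4 a negative one (8.84%). Lox had the steepest slope among the called members that rose, at 0.24 ± 0.03 log2 units per dose step (adjusted p = 1.232e-06), and Pdgfrb followed in p with 0.07 ± 0.01 (adjusted p = 3.13e-06). Col1a2 (0.05 ± 0.02, adjusted p = 0.0389) and Col6a2 (0.05 ± 0.02, adjusted p = 0.0358) were called in the trend and at no single dose. Without the 30 µg/kg group 10 members had a called slope, 7 of the 22 and also Col3a1 (0.06, adjusted p = 0.0363), Col6a3 (0.07, adjusted p = 0.0030) and Col15a1 (0.04, adjusted p = 0.0498). With all libraries, 35 of the 58 were called in no dose comparison and not in the trend.

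In these genes, the 5 kidneys at 30 µg/kg differed more from each other than those of the other groups did. Over the 53 members at a mean of 1 CPM or more, the median SD of log2 CPM within a group was 0.51 at 30 µg/kg and 0.18 to 0.27 in the other 7 groups. The same median over 14223 genes at that level was 0.25 at 30 µg/kg and 0.16 to 0.19 elsewhere. Replicate 3 at 30 µg/kg had the lowest value of its group in 32 of the 58 members (55.2%, beside 24.7% of all genes), and replicate 2 had the highest in 20 (34.5%, beside 20.2%). Such shares were not particular to this dose. Replicate 3 at 1 µg/kg had the lowest value in 29 members (50%, beside 22.0%). Replicate 1 at 0.03 µg/kg had the highest in 26 (44.8%, beside 21.5%). The summed level of the 20 other fibroblast and pericyte markers in these libraries was 534, 484, 357, 435 and 500.5 CPM, in the order of replicates 1 to 5, and that of proximal tubule markers was 11730, 14460, 12490, 8829 and 8373 CPM. Their total counts were 17290580, 17700985, 15278423, 17090692 and 24017319, and their mitochondrial share was 9.39, 8.59, 8.44, 8.61 and 7.31%. The part of these values in the spread of the collagens was not tested. Lox did not follow the collagens at 30 µg/kg: its highest value was in replicate 4, where Col3a1, Col6a3 and Col15a1 were far below vehicle.

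**Figure D5:**
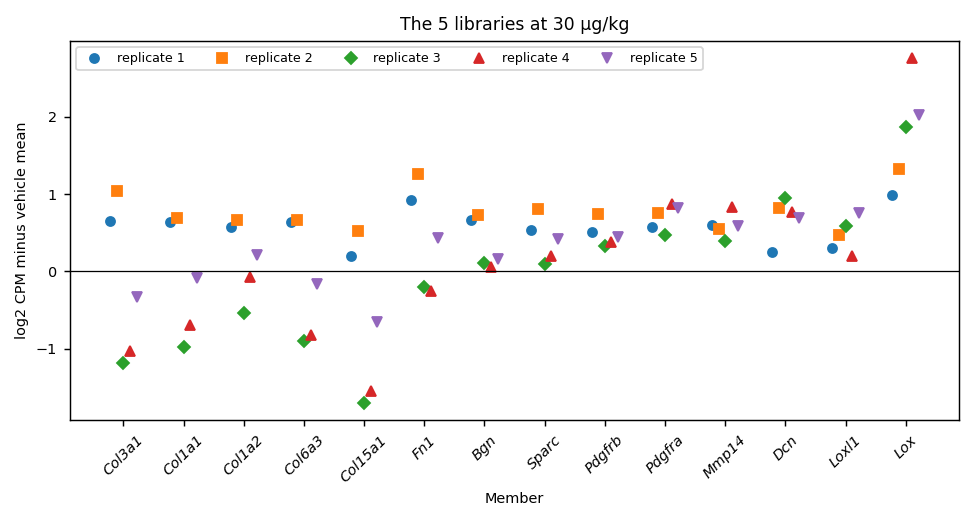
Log2 CPM of 14 members in each of the 5 libraries at 30 µg/kg, minus the mean of the vehicle libraries (line at 0); each marker shape is 1 library. Replicates 1 and 2 lie above 0 and replicates 3, 4 and 5 below it for Col3a1, Col1a1, Col6a3 and Col15a1, while all 5 lie above 0 for Sparc, Pdgfra, Pdgfrb, Mmp14, Dcn, Loxl1 and Lox.

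Several pairs of collagen chains varied together between kidneys of the same dose. The pairs join chains of 1 molecule or network, or genes of 1 cell type. The log2 CPM of 8 pairs was centred within each group and correlated over the 40 libraries, with 100000 permutations within groups and adjustment over the 8 pairs. Col1a1 and Col3a1 gave a Pearson r of 0.937 (Spearman 0.908) and Col1a1 and Col1a2 an r of 0.926 (Spearman 0.926). Col6a1 with Col6a2 gave 0.837 (Spearman 0.842) and Col4a1 with Col4a2 0.774 (Spearman 0.805). In all 4 the permutation p was 1e-05, the smallest these draws can give (adjusted 2e-05), and r without the 2 libraries farthest from the median was 0.909, 0.885, 0.818 and 0.788. Col4a3 with Col4a4 gave 0.69 (Spearman 0.595, permutation p = 0.00025, adjusted 0.0004), and 0.607 without the 2 farthest. Col4a5 with Col4a6 (0.223, permutation p = 0.295, adjusted 0.393), Col5a1 with Col5a2 (0.144, 0.413 and 0.413) and Acta2 with Tagln (0.121, 0.370 and 0.413) did not pass, with Spearman values of 0.133, 0.0546 and 0.127. Tagln failed the filter on low counts, reached 0.77 CPM at most and shares 67.9% of its exon bases with other genes. Its pair with Acta2 therefore cannot show whether these genes vary together. Because the 30 µg/kg libraries were spread so widely, the same values were computed without them, a choice made after seeing the data. Over the other 35 libraries r was 0.861, 0.878, 0.819 and 0.780 for the first 4 pairs (adjusted permutation p = 2e-05) and 0.50 for Col4a3 with Col4a4 (adjusted permutation p = 0.0101). Both genes of a pair are read from the same libraries and share depth and scaling, and DESeq2's size factors moved none of the 8 across the threshold.

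Of 6 lists of related genes outside the set, the TGF-beta list is given above and 5 follow, all at 30 µg/kg, where 8.39% of all genes were higher and 7.55% lower. Of 21 other matrix glycoproteins and proteoglycans tested, 8 were higher and 0 lower (median log2 fold change 0.33). Among them Ecm1, a secreted matrix glycoprotein, went from 95.3 ± 18.9 to 209.9 ± 35.0 CPM, Fbln1, which binds fibronectin and elastic fibres, from 9.50 ± 2.74 to 16.7 ± 4.09, and Mgp, an inhibitor of calcification, from 48.4 ± 4.41 to 82.0 ± 20.0. Of 18 laminins and other basement membrane proteins, 4 were higher and 0 lower, with Papln at 0.94, Hspg2 (perlecan) at 0.36 and Pxdn, the enzyme that crosslinks collagen IV, at 0.32. Of 23 enzymes of collagen folding and processing, 4 were higher and 5 lower, with a median of −0.01: Tll1, a procollagen proteinase, rose by 1.40 and Loxl3 by 0.87, while P4ha2, a prolyl hydroxylase, fell by 0.50. P4ha2 went from 29.3 ± 2.78 to 20.7 ± 8.89 CPM (SD, n = 5), with 3 libraries at 30 µg/kg below all vehicle libraries and 1 above all of them. Of 18 other matrix proteases and inhibitors 1 was higher, Ctss (1.31), a cathepsin of macrophages, a share below that of all genes. Of 15 integrins and discoidin receptors 5 were higher and 1 lower. Those higher included Ddr2 (0.73), a fibrillar collagen receptor, and the integrins Itgb3 (1.12) and Itga8 (0.59), which are not collagen receptors.

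Markers of other cell types also moved at 30 and 10 µg/kg. Beside 8.39% of all genes higher and 7.55% lower at 30 µg/kg, endothelial markers were higher in 8 of 12 genes, with a summed level of 751 to 895 CPM with vehicle and 996 to 1145 CPM at 30 µg/kg, and Emcn, Cdh5 and Robo4 rose by 0.74, 0.65 and 0.78. Macrophage markers were higher in 10 of 12 (214 to 261 CPM against 357 to 671 CPM), with Ms4a7 at 1.69 and Itgam at 2.23. These 2 genes were of low level, with means of 0.872 and 0.299 CPM with vehicle and 2.85 and 1.46 CPM at 30 µg/kg. Podocyte markers were higher in 3 of 8 (301 to 431 CPM against 423 to 599 CPM), among them Podxl and Synpo, both at 0.51, and mesangial and juxtaglomerular markers in 2 of 6, Gata3 (0.48) and Serpine2 (0.42). Urothelial markers were higher in 4 of 8 (42.1 to 80.3 CPM against 97.9 to 173 CPM), led by Upk2 (1.95). Smooth muscle markers were higher in 2 of 10, Des (0.73) and Myh11 (0.64), with sums of 191 to 256 CPM and 187 to 279 CPM. The median log2 fold change of these 10 genes was 0.60 (0.01 over all genes). Other fibroblast and pericyte markers were higher in 4 of 19 and lower in 1, with Rgs5 at 0.83, Abcc9 at 0.75 and Nt5e at −1.04, and their sums overlapped (433 to 586 CPM against 357 to 534 CPM). Nt5e was a large part of these sums, at 158 ± 45.5 CPM with vehicle and 77.0 ± 39.5 CPM at 30 µg/kg (SD, n = 5). The median log2 fold change of the list was 0.21 (0.01 over all genes). S100a4, of that list, had at most 3 counts in every library. Proximal tubule markers were lower in 4 of 9 and higher in 1, led by Slc7a13 (−1.29) and Slc22a6 (−0.81), with sums of 12930 to 15910 CPM with vehicle and 8373 to 14460 CPM at 30 µg/kg. Markers of tubular injury were higher in 7 of 12 and lower in 1, led by Cd44 (2.71) and Ccl2 (1.94). Ccl2 was of low level, at 0.370 ± 0.314 CPM with vehicle and 1.40 ± 0.665 CPM at 30 µg/kg, where 3 libraries were above all vehicle libraries. Fat markers had 1 gene higher (Ucp1, 3.17) and 1 lower (Lep, −2.71) of 8, with a median log2 fold change of 0.79. Their sums were 119 to 320 CPM with vehicle and 293 to 653 CPM at 30 µg/kg. Of 8 genes listed as skeletal muscle markers 3 were tested and 1, Pvalb, was lower, and Myh4 had at most 3 counts in every library. Pvalb, at 30.8 ± 8.08 CPM with vehicle (SD, n = 5), made up most of the list's vehicle sums of 21.0 to 41.6 CPM. The list thus follows mainly 1 gene and cannot show a change in muscle. Medulla and collecting duct markers had 1 higher (Cldn8) and 1 lower (Aqp3) of 10, and adrenal markers none of 2. Endothelial markers at 10 µg/kg, where 3.82% of all genes were higher and 0.997% lower, were higher in 9 of 12 (982 to 1094 CPM), macrophage markers in 9 of 12 (497.5 to 965.5 CPM) and podocyte markers in 5 of 8 (463 to 607 CPM), and the sums of these 3 lists did not overlap vehicle. Other fibroblast and pericyte markers were higher in 3 of 19 at that dose, tubular injury markers in 3 of 12 and smooth muscle markers in 2 of 10. The part of these cell types in the changes of the matrix genes was not tested.

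In 3 libraries of the lower doses the adrenal markers stood apart. Their summed level was 809 CPM in replicate 1 at 0.03 µg/kg, 843 CPM in replicate 4 at 1 µg/kg and 44.7 CPM in replicate 2 at 3 µg/kg, against 4.02 to 6.08 CPM with vehicle. Without these 3 libraries, a choice made after seeing the data, no member was called at the 5 lower doses. The same 9 members were called at 10 µg/kg, and 18 of the 19 at 30 µg/kg, with Fn1 lost (adjusted p = 0.0519). The 22 slopes stayed called, and Col5a1, Fbn1 and Timp1 were added.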

How the data were processed

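Bulk RNA was sequenced from 40 right kidneys. The authors deposited raw counts per gene, 1 file a library, laid out as STAR writes them. FastQC 0.11.7, Trimmomatic 0.39, STAR 2.7.3a and DESeq2 are among the tools, and GRCm39 and mm10 among the builds, in the submitters' processing notes. Which build was counted is not given in the sources used here, so the only coordinates printed are RefSeq's. The unstranded counts were used, since either strand held about the same share (50.4 to 51.0% sense). Unmapped (1.41 to 2.66%), multimapping (6.98 to 9.70%), featureless (5.28 to 7.27%) and ambiguous (5.40 to 5.98%) reads entered no library size. A further deposited table of the series was not used. Of the identifiers, 52083 were named with GENCODE M21, which also gave exon lengths.

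Genes were filtered with filterByExpr by group and scaled by TMM (factors 0.966 to 1.09). They were tested in R 4.3.3 with edgeR 4.0.16 (quasi-likelihood, robust, 8 groups, no covariate, fold changes with a prior count of 0.125), after a test on simulated data. DESeq2 1.42.0, RLE factors, no filter, fits of only the groups compared, stranded counts and leaving out each library were the alternatives. A fit without the 3 libraries whose summed adrenal markers exceeded 5 times the highest vehicle value was added after seeing the data. Replicate pairs gave a chi-square per degree of freedom of 7.34 to 87.9. Counting precision covers sampling of reads only. Intervals are the estimate ± its SE times the normal quantile.

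Replicates were numbered within a group in accession order. In that order the samples run through all doses with replicates 1 to 3 (1 and 2 at 0.1 µg/kg), and then again with the remaining replicates. The labels do not say whether these runs were batches. No term for them was fitted, and their part in the spread at 30 µg/kg was not tested. The members and lists were chosen with earlier results of these data known. Named members were up to 20 called at any dose by size at 30 µg/kg, 20 fixed genes whatever their result and 3 in each direction by lowest trend p. Up to 3 genes called at 30 µg/kg were named from each list. Loxl2, Col16a1 and other members named for their position were added after their values were seen. Values of some genes in the marker and pathway lists are not reported here.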

Additional observations from a re-analysis of the deposited data

Results flagged for a closer look

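Over 272 groups of 5 libraries, 12 had a highest or lowest value far from the other 4, where a chance of 1 in 20 gives about 14. No library had more than 2 of them. Timp1, near the limit of detection, had 3: vehicle replicate 4 at 0.526 CPM (next 0.230), replicate 1 of the 0.03 µg/kg group at 1.36 CPM (next 0.119) and replicate 3 of the 1 µg/kg group at 1.38 CPM (next 0.560). Sparc was high in replicate 1 at 0.03 µg/kg, at 246 CPM (next 183), and in replicate 4 at 1 µg/kg, at 238 CPM (next 176). In that last library Pdgfrb was also high, at 56.9 CPM (next 48.2). Col26a1 was high in replicate 1 at 0.3 µg/kg, at 7.86 CPM (next 5.07), and in replicate 3 at 1 µg/kg, at 7.33 CPM (next 5.04). Col4a2 was low in replicate 1 at 0.3 µg/kg, at 208 CPM (next 221), and Col4a5 was high in replicate 5 at that dose, at 73.0 CPM (next 64.1). At 30 µg/kg, Col4a2 was high in replicate 5, at 297 CPM (next 257), and Col5a2 in replicate 1, at 42.8 CPM (next 33.8), and both calls at that dose were lost without that library. The summed adrenal markers were highest, at 809 and 843 CPM, in the first Sparc library (0.03 µg/kg) and the second (1 µg/kg), and whether this bears on their Timp1, Sparc or Pdgfrb values was not tested.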

How the results depend on the processing

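The count of members called at 30 µg/kg was 7 when only the 2 groups compared were fitted (Col6a6, Dcn, Lox, Loxl1, Mmp14, Pdgfra and Pdgfrb), and 13 to 22 when 1 library was left out. At 10 µg/kg it was 11 with only the groups compared (Col4a1 and Pdgfra lost, Col15a1, Col1a2, Col3a1 and Col6a3 gained), 10 with DESeq2, and 5 to 10 without 1 library, with 5 without vehicle replicate 2 or 3. At 3 µg/kg it was 1 with DESeq2 and with only the groups compared, and 0 to 1 without 1 library (1 without vehicle replicate 4 or 5). Between 30 and 10 µg/kg it was 0 with only the groups compared, 1 with stranded counts and 0 to 6 without 1 library. In the trend it was 10 without the 30 µg/kg group and 17 to 25 without 1 library. At the 4 lowest doses it was 0 throughout. The median log2 fold change of the members ran from 0.27 to 0.33 at 10 µg/kg and from 0.19 to 0.36 at 30 µg/kg without 1 library. Some values near 0 changed sign: Postn at 30 µg/kg with no filter (−0.00237), the trend of Postn with stranded counts (−0.00228), and without the 30 µg/kg group the trends of Acta2 (−0.00178) and Col15a1 (0.0438, then called, adjusted p = 0.0498). Without 1 library, values at 30 µg/kg crossed 0 for Col1a1 (−0.16 to 0.21), Col3a1 (−0.29 to 0.28), Col4a3 (−0.149 to 0.0105), Col4a5 (−0.0132 to 0.126), Col6a1 (−0.0822 to 0.200), Col6a3 (−0.17 to 0.19) and Postn (−0.27 to 0.31), and trend slopes for Col15a1 (−0.0161 to 0.0123) and Postn (−0.0033 to 0.0403). The cause was not tested. Correlations stayed on their side of the threshold with DESeq2 size factors and without the 30 µg/kg group. No paired analysis was possible because the labels give the libraries no replicate numbers. Depth limits members under about 1 CPM, such as Timp1, Col17a1, Col25a1 and Col6a4.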
